A study of Mus musculus with 11 samples.

Results

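The genes described here act in the transport, storage or control of lipids and sterols. They are the apolipoproteins Apoe, Apoc1 and Apoc2, the lipase Lpl, and the transporters Abca1 and Abcg1. To these come the sterol enzymes Ch25h and Soat1, the nuclear receptor Nr1h3 and the ubiquitin ligase Mylip. These 10 genes were named by function and selected on these same arrays, with the log2 levels of the 4 groups already known, so their group levels are given as a description and without a p-value. All 10 were found among the 19572 genes tested, each by 1 probe matched to its symbol through the RefSeq accession on the array. Each probe was well above background on all 11 arrays, so no member passed a filter only through a group where it was high.

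The arrays measured bulk RNA of microglia from C57BL/6N mice. A_FACS (2 arrays) held microglia of adult female mice and NB_FACS (3 arrays) held microglia of newborn mice of both sexes in their first days, both sorted from brain as CD45 intermediate and CX3CR1 high cells and never cultured. NB_Control and NB_Stim (3 arrays each) held newborn microglia shaken off mixed flask cultures that had been fed repeatedly with L-929 conditioned medium, a source of M-CSF, with the brains of several pups in a flask. Per the methods, these cells were collected weeks after the brains were taken. These cells were then kept for 1 day in serum-containing DMEM/F12, without added cytokines (NB_Control) or with 100 ng/mL of each of the human proteins TGF-β1, CX3CL1 and IL-34 (NB_Stim), so both cultured groups share the flask phase, the conditioned medium and the serum. The study counts arrays of a group as biological replicates. The 3 arrays numbered 3, of the newborn groups, were on slide 2, scanned apart from the 8 arrays on slide 1.

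Microglia take up lipoproteins, myelin debris and lipid from dying cells and must store or export the cholesterol they cannot degrade. Oxysterols made from surplus cholesterol activate the liver X receptors (LXR), nuclear receptors that switch on the export transporters, Apoe and other apolipoproteins, and Mylip, which removes the LDL receptor from the cell surface. Surplus cholesterol that is not exported is esterified and kept in droplets. Apoe is the main lipid carrier of the brain, made mostly by astrocytes, and microglia are known to make more of it in disease and in early life than in the healthy adult brain.

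The probes were 47 to 55 bases long, and 3 of the 10 held the poly(A) signal AATAAA, against 4.46% of the 60037 probes on the array. These 3 are shown because the signal marks the end of a transcript, and so tells which stretch of Apoe, Apoc1 and Nr1h3 the array read. In each, 30 bases of the probe around the signal are given 5′ to 3′ as deposited, with the signal in capitals.
Apoe: cctctggtggcccttgcttAATAAAgattc
Apoc1: tcatcacagaccAATAAAaaacgtgtagaa
Nr1h3: tgttgacccaaccaAATAAActagccagga

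RefSeq promoter windows of build GRCm38.p6 were at hand for 7 of the 10 genes, 10 windows in all. The LXR element, a repeat of AGGTCA with 4 bases between (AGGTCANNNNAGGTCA), was searched on both strands of the 250 bases before each start, allowing 2 mismatches over its 12 fixed letters. A stretch this near to the exact repeat was in 0 of the 10 windows and in 2.57% of all 32851 promoters. LXR elements that differ more from the exact repeat were not counted by this search. The nearest stretch, with 3 mismatches, lay 52 to 67 bases before the Abca1 start on the opposite strand, and 18.5% of all promoters hold one at least as near. It is shown because Abca1 is the textbook LXR target among the transporters, at chr4:53159940-53159969 (GRCm38.p6), read along the gene's minus strand, with the 6 letters of each repeat in capitals. A match or its absence says only which letters this window holds. Whether the Abca1 stretch is an LXR element was not tested.
Abca1: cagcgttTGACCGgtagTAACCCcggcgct

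An array had 66.9% to 80.5% of its 59899 probes above background, and no spot was saturated. Expression was on the log2 scale after quantile normalisation, a step that gives every array the same set of values and assigns them by brightness rank. Replicates 1 and 2 of NB_Control and of NB_Stim lay close together, with mean absolute log2 differences of 0.172 and 0.19 over all genes, against 0.257 for NB_FACS 1 and 2. The slide 2 array of each newborn group lay farther from the other arrays of its group, at 0.406 to 0.499. For several of the 10 genes NB_Control 3 differed from NB_Control 1 and 2 by much more, and their values are given with and without it. The 8 microglial markers Cx3cr1, P2ry12, Tmem119, Trem2, Fcrls, Olfml3, Itgam and Csf1r were measured in every group. Their summed level was 222800 to 243000 in A_FACS, 124400 to 141300 in NB_FACS, 52950 to 66830 in NB_Control and 110800 to 120200 in NB_Stim.

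**Figure D1:**
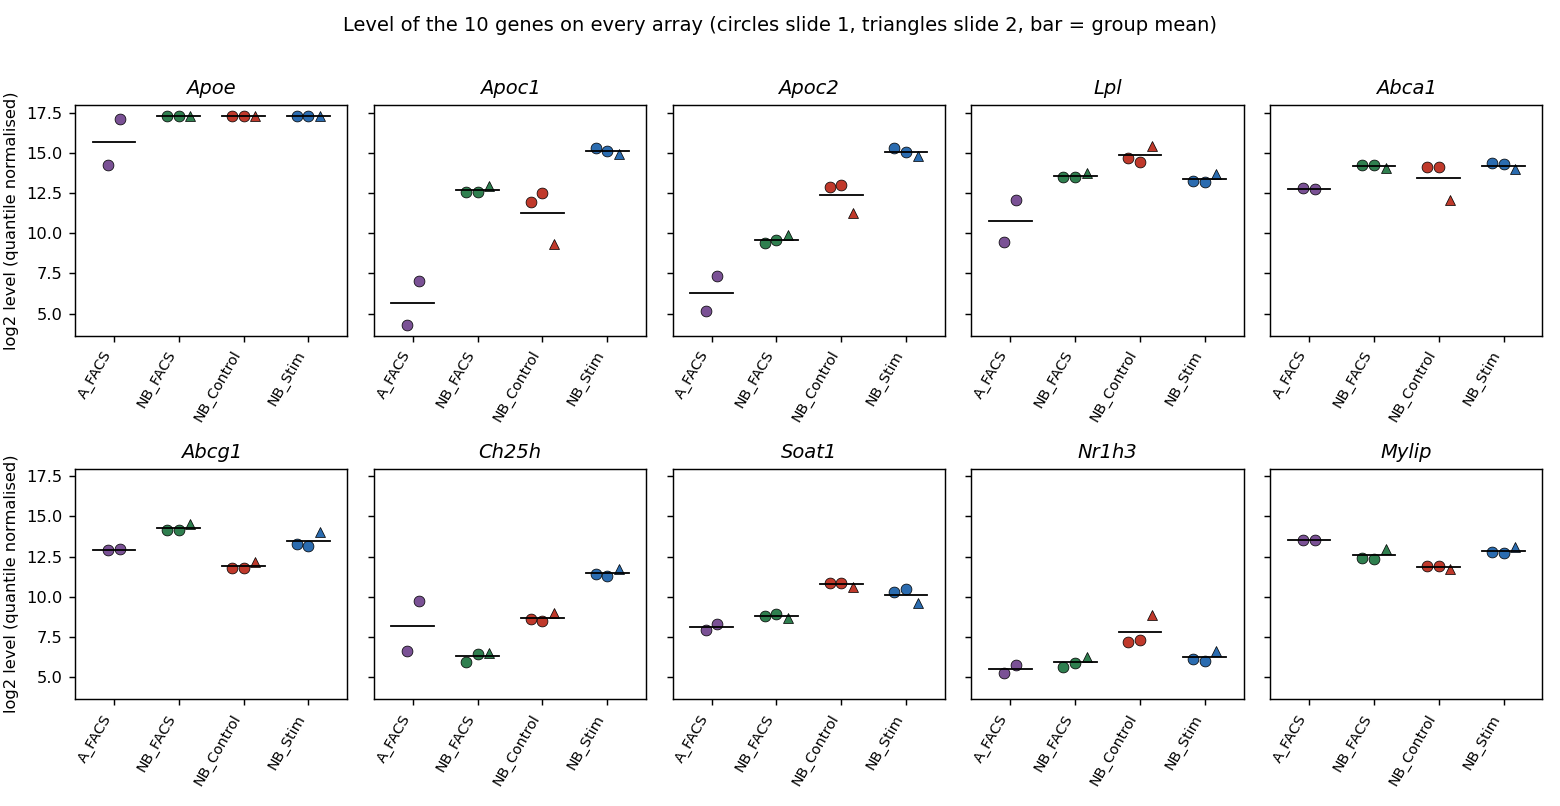
Log2 level after quantile normalisation (vertical axis) of the 10 genes on each of the 11 arrays, by group (horizontal axis), with circles for slide 1, triangles for slide 2 and a bar at the group mean. Apoc2 and Ch25h stand highest in NB_Stim, Apoe is tied at 17.31 on the 9 newborn arrays, and NB_Control 3 lies away from NB_Control 1 and 2 for Apoc1, Apoc2, Abca1 and Nr1h3.

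Apoe, the lipid carrier that binds receptors of the LDL receptor family, gave the brightest of all probes on each of the 9 newborn arrays. Before normalisation its intensity was 132450, 141748 and 244426 in NB_FACS 1 to 3, 151879, 153086 and 255236 in NB_Control, and 146946, 138364 and 254833 in NB_Stim, in arbitrary units. The third value of each group, from slide 2, was the higher one, and the 75th percentile of all probes was higher there too, at 444 to 507 against 174 to 315 on the newborn arrays of slide 1. The Apoe probe exceeded the brightest other probe 1.17 to 1.26 times on slide 1 and 1.07 to 1.13 times on slide 2.

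Because quantile normalisation assigns the top value to whichever probe is brightest, Apoe was set to 17.31 on all 9 newborn arrays, and its log2 difference between any newborn groups was 0 by construction. That 0 is not a measurement of equal expression. With each array scaled by its 75th percentile instead, the Apoe level was 17.39 ± 0.33 in NB_FACS, 17.18 ± 0.10 in NB_Control and 17.44 ± 0.13 in NB_Stim (SD, n = 3 each). NB_FACS overlapped with both cultured groups, and the NB_Stim arrays lay above the NB_Control arrays, at 574 to 690 times the 75th percentile against 486 to 553 times. On that scale NB_Stim minus NB_Control was 0.26 (SE 0.56), NB_Control minus NB_FACS was -0.21 (SE 0.56), and NB_Stim minus NB_FACS was 0.051 (SE 0.56). All groups share the estimate of the spread, so these SEs also hold the wide adult spread (A_FACS SD 2.04, n = 2). With arrays scaled by their spike-in controls, NB_Stim minus NB_Control was -0.11 (SE 0.55) and NB_Control minus NB_FACS was 0.40 (SE 0.55). Both signs were thus opposite to those on the 75th-percentile scale. The Apoe intensity was 19.6 to 20.8 times the spike-in level in NB_Stim and 20.1 to 22.9 times in NB_Control, with overlap.

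In A_FACS the Apoe probe was ranked 384 on array 1, at an intensity of 11920, and ranked 2 on array 2, at 119936. The quantile-normalised levels were 14.24 and 17.11, so only A_FACS 1 lay far below the newborn arrays. The intensity was 61 and 452 times the 75th percentile of the array in A_FACS, and 482 to 762 times in NB_FACS, so the groups did not overlap on that scale and A_FACS 2 lay close to NB_FACS. A_FACS minus NB_FACS was -1.87 (SE 0.63) there, and -1.64 (SE 0.61) after quantile normalisation, where the NB_FACS level is fixed by rank.

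**Figure D2:**
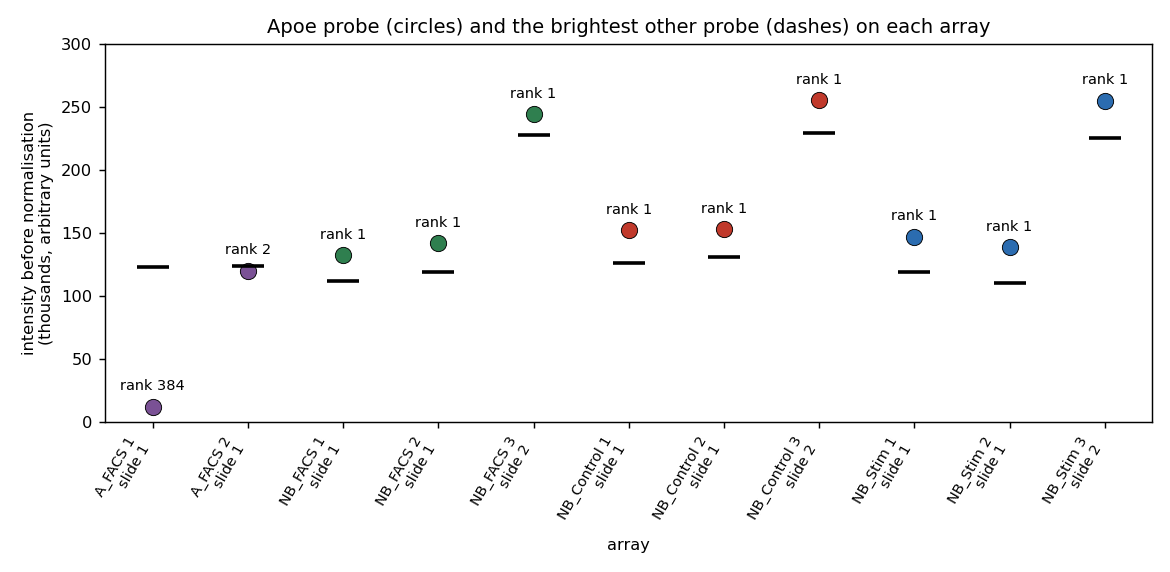
Intensity before normalisation between arrays (vertical axis, arbitrary units divided by 1000) of the Apoe probe (circles, coloured by group) and of the brightest other probe (dashes) on each array, with the brightness rank of Apoe written above. Apoe ranks 1 on all 9 newborn arrays, 2 on A_FACS 2 and 384 on A_FACS 1, and slide 2 arrays are brighter.

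Apoc1, a small apolipoprotein known to inhibit lipoprotein lipase, had the widest range of the 10 genes. Its log2 level was 4.28 and 7.04 in A_FACS, 12.55, 12.58 and 12.93 in NB_FACS, 11.96, 12.52 and 9.35 in NB_Control, and 15.29, 15.10 and 14.94 in NB_Stim. The groups ranked A_FACS, NB_Control, NB_FACS, NB_Stim from low to high with no overlap, although the highest NB_Control array lay just under the lowest NB_FACS array. NB_Stim was 3.83 (SE 0.82) log2 units above NB_Control, a 14.2-fold difference, and 2.42 (SE 0.82) above NB_FACS. A_FACS minus NB_FACS was -7.02 (SE 0.92), a 130-fold difference, or -5.64 without A_FACS 1 and -8.4 without A_FACS 2.

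A single array set much of the Apoc1 spread in culture. NB_Control 3 minus the mean of NB_Control 1 and 2 was -2.89, against a median absolute difference of 0.292 over all genes. Without it NB_Stim was 2.87 above NB_Control, and NB_Control minus NB_FACS was -0.44 where all arrays gave -1.41. On slide 1 alone NB_Stim exceeded NB_Control by 2.95, and on slide 2, with 1 array a group, by 5.59.

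Apoc2, the cofactor that lipoprotein lipase needs for its activity, was stepwise higher through the newborn groups. The log2 level was 5.16 and 7.35 in A_FACS, 9.37, 9.57 and 9.88 in NB_FACS, 12.87, 12.98 and 11.28 in NB_Control, and 15.28, 15.03 and 14.83 in NB_Stim. No group overlapped with another. NB_Control was 2.77 (SE 0.56) above NB_FACS, NB_Stim was a further 2.67 (SE 0.56) above NB_Control, and NB_Stim was 5.44 (SE 0.56) above NB_FACS, a 43.5-fold difference and the largest of the 10 genes among newborn groups. A_FACS minus NB_FACS was -3.35 (SE 0.63). NB_Control 3 was again low, at -1.64 from the mean of the other NB_Control arrays, and without it NB_Stim was 2.12 above NB_Control and NB_Control was 3.32 above NB_FACS.

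Lpl, the enzyme that splits the triglycerides of lipoproteins, was highest in NB_Control. Its log2 level was 9.43 and 12.08 in A_FACS, 13.51, 13.49 and 13.72 in NB_FACS, 14.67, 14.45 and 15.40 in NB_Control, and 13.23, 13.16 and 13.68 in NB_Stim. NB_Stim and NB_FACS overlapped, and NB_Control lay above both. NB_Control was 1.27 (SE 0.55) above NB_FACS and NB_Stim was -1.49 (SE 0.55) from NB_Control, and neither difference was past the threshold used for all genes. Both were past it with arrays scaled by their spike-in controls, and the first also with only the 2 groups compared in the fit. Without NB_Control 3 the differences were 0.99 and -1.21. The SEs hold the adult spread too, with an SD of 1.88 in A_FACS and 0.13 to 0.50 in the newborn groups. The adult arrays differed by 2.65, and A_FACS minus NB_FACS was -2.82 (SE 0.61), or -1.49 without A_FACS 1 and -4.15 without A_FACS 2.

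Of the efflux transporters, Abcg1 moves cholesterol to lipoprotein particles and was lowest in NB_Control. It had log2 levels of 12.91 and 12.97 in A_FACS, 14.15, 14.16 and 14.50 in NB_FACS, 11.78, 11.78 and 12.18 in NB_Control, and 13.31, 13.14 and 14.01 in NB_Stim. The groups ranked NB_Control, A_FACS, NB_Stim, NB_FACS from low to high without overlap. NB_Control minus NB_FACS was -2.35 (SE 0.23) and NB_Stim was 1.57 (SE 0.23) above NB_Control. NB_Stim minus NB_FACS was -0.78 (SE 0.23), and A_FACS minus NB_FACS was -1.33 (SE 0.26).

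Abca1, which loads cholesterol and phospholipid onto lipid-poor apolipoproteins, lay between 13.97 and 14.35 on all newborn arrays but 1. Its log2 level was 12.83 and 12.74 in A_FACS, 14.24, 14.27 and 14.09 in NB_FACS, 14.12, 14.15 and 12.06 in NB_Control, and 14.35, 14.31 and 13.97 in NB_Stim. NB_Control 3 minus the mean of the other NB_Control arrays was -2.07. NB_Control minus NB_FACS was -0.76 (SE 0.46) with that array and -0.067 without it, and NB_Stim minus NB_Control was 0.76 (SE 0.46) with it and 0.074 without it. A_FACS minus NB_FACS was -1.42 (SE 0.52), with no overlap and with adult arrays that differed by -0.094.

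Ch25h makes 25-hydroxycholesterol, an oxysterol that restrains cholesterol synthesis. Its log2 level was 5.92, 6.46 and 6.52 in NB_FACS, 8.60, 8.48 and 9.02 in NB_Control, and 11.42, 11.32 and 11.76 in NB_Stim, against 6.60 and 9.75 in A_FACS. Like Apoc2 it was higher in NB_Control than in NB_FACS and higher again in NB_Stim, and the newborn groups did not overlap. NB_Control was 2.40 (SE 0.62) above NB_FACS, NB_Stim 2.80 (SE 0.62) above NB_Control, and NB_Stim 5.20 (SE 0.62) above NB_FACS, a 36.7-fold difference. The adult arrays were 3.15 apart, the widest gap of the 10 genes, so that A_FACS minus NB_FACS was 1.88 (SE 0.69) with both, 0.30 without A_FACS 2 and 3.45 without A_FACS 1. The adult group overlapped with NB_Control. The SEs of the newborn comparisons also hold the adult spread, with an SD of 2.23 in A_FACS and 0.23 to 0.33 in the newborn groups.

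Soat1 esterifies cholesterol for storage. It was highest in NB_Control, at a log2 level of 10.63 to 10.86, followed by NB_Stim at 9.60 to 10.50, NB_FACS at 8.69 to 8.95 and A_FACS at 7.93 to 8.30, and no neighbours in that order overlapped. NB_Control was 1.97 (SE 0.23) and NB_Stim 1.33 (SE 0.23) above NB_FACS. The step from NB_Control to NB_Stim, at -0.64 (SE 0.23), was not past the threshold.

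Nr1h3, which encodes LXRα, the nuclear receptor that drives several of the other genes, was highest in NB_Control. The log2 level was 7.17, 7.31 and 8.88 in NB_Control and 5.98 to 6.63 in NB_Stim, 5.63 to 6.23 in NB_FACS and 5.24 to 5.76 in A_FACS. Only NB_Control stood clear, since NB_Stim overlapped with NB_FACS and NB_FACS with A_FACS. NB_Control was 1.87 (SE 0.41) above NB_FACS, and 1.325 above it without NB_Control 3. NB_Stim minus NB_Control was -1.55 (SE 0.41), which was not past the threshold. It was past it, at the same value, with the replicate number or the slide as a block in the fit, and at -1.89 on the spike-in scale, and it was -1.0 without NB_Control 3.

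Mylip, the LXR-induced ligase that marks the LDL receptor for degradation, had the narrowest range of the 10 genes over the arrays. Its log2 level was 13.53 and 13.51 in A_FACS, 12.40, 12.34 and 13.00 in NB_FACS, 11.90, 11.89 and 11.72 in NB_Control, and 12.82, 12.70 and 13.11 in NB_Stim. NB_Stim and NB_FACS overlapped, NB_Control was the lowest group and A_FACS the highest. NB_Control minus NB_FACS was -0.74 (SE 0.19), with NB_Stim 1.04 (SE 0.19) above NB_Control and A_FACS 0.94 (SE 0.21) above NB_FACS. Abcg1 and Mylip were thus the members lowest in NB_Control and higher with cytokines, while Soat1, Nr1h3 and Lpl were the members highest in NB_Control.

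**Figure D3:**
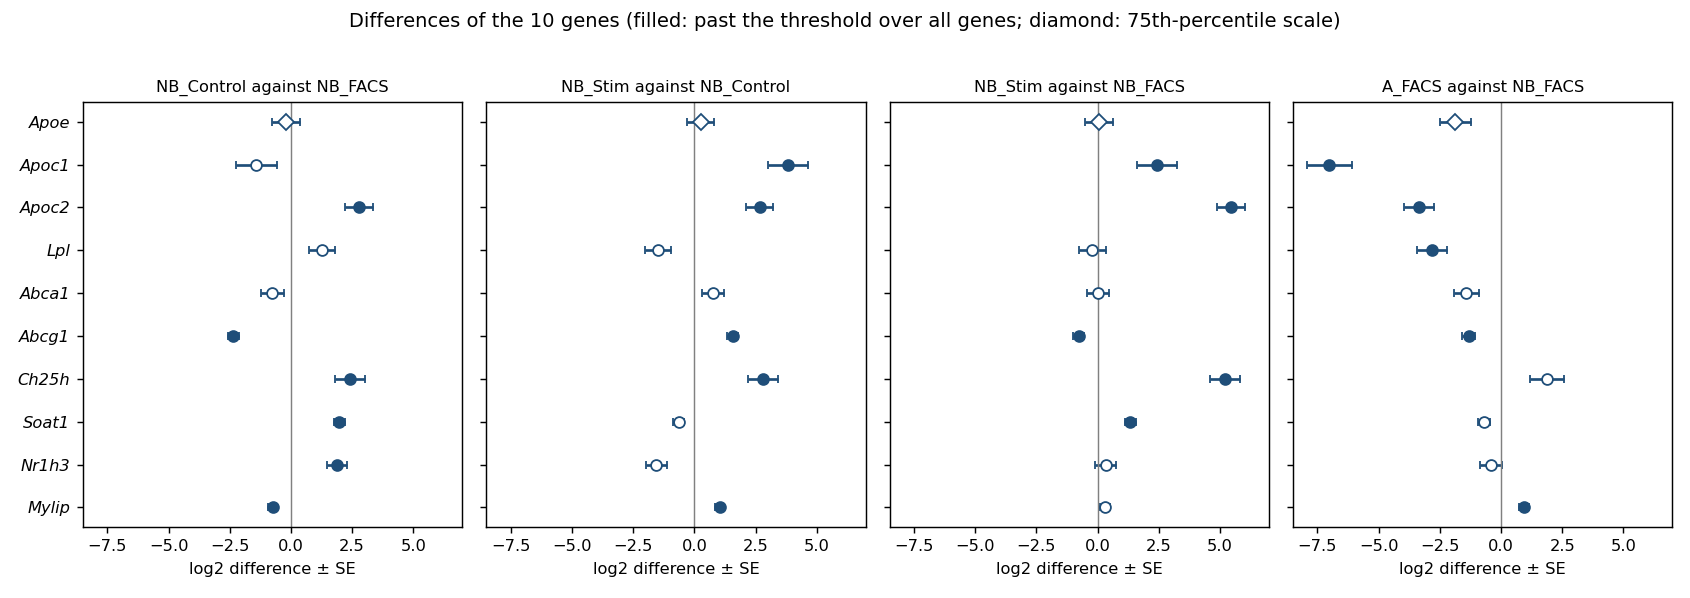
Log2 difference ± SE from limma (horizontal axis) of each gene in the 4 comparisons, first group minus second, with filled symbols for differences past the threshold over all 19572 genes; Apoe is drawn as a diamond on the 75th-percentile scale, since its quantile-normalised difference among newborn groups is 0 by construction. Apoc2 and Ch25h lie right of 0 in all 3 newborn comparisons, Abcg1 lies left of 0 in 3 comparisons and right in NB_Stim against NB_Control, and Apoc1 is at -7.02 in the adult comparison.

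NB_Control against NB_FACS set cultured against sorted newborn cells. The groups differ together in isolation, weeks in flasks with other brain cells, conditioned medium and culture with serum, so these cannot be told apart. Per the methods, the sorted cells also met serum, during digestion and sorting. Apoc2, Ch25h, Soat1 and Nr1h3 were higher in culture and Abcg1 and Mylip lower, so 6 of the 10 genes were past an adjusted p of 0.05 in limma, as were 29.7% of all genes tested. The groups did not overlap for 8 of the 10, and for 44.2% of all genes. The median of the 10 differences was 0.64 against 0.087 over all genes. Nothing is read from these counts, since the genes were selected on these arrays. The Ch25h call was lost without NB_FACS 1, and the Mylip difference was -0.071 when arrays were scaled by their spike-in controls, a scale on which the median over all genes was 0.64. In bulk RNA, fewer cells of a type and less RNA per cell cannot be told apart. The 8 fibroblast markers measured had a summed level of 1042 to 1247 in NB_FACS and 32730 to 39290 in NB_Control, with 6 of 8 past the threshold, and the 10 astrocyte markers had 3074 to 3451 and 4461 to 4558, with 3 of 10 past it. The 7 erythroid markers had 149000 to 205200 in NB_FACS and 411.8 to 443.6 in NB_Control, with 4 of 7 lower. The border macrophage markers had 12890 to 15620 and 47910 to 89980, with 3 of 10 higher and 3 lower. Of the other lists, 5 of 8 microglial, 6 of 8 endothelial and 2 of 4 choroid plexus markers were lower in NB_Control. The part of these cells in the differences of the 10 genes was not tested.

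The effect of the cytokines in culture was addressed by NB_Stim against NB_Control. Apoc1, Apoc2, Abcg1, Ch25h and Mylip were higher in NB_Stim, so 5 of 10 genes were past the threshold, all upward, beside 3.40% of all genes. On the spike-in scale, where the median of all genes was -0.34, Apoc1, Apoc2 and Ch25h were past the threshold upward, Abcg1 (0.96) and Mylip (0.39) were not past it, and Lpl (-2.02) and Nr1h3 (-1.89) were past it downward. The groups did not overlap for 8 of 10 genes, and for 24.0% of all genes. The median difference was 0.90 against -0.00074 over all genes, and again nothing is read from the counts, which the selection of the genes used. Leaving out any 1 of the 6 arrays left 1 or 2 of the 5 calls. Abcg1 kept its call in all 6 of these fits, Mylip in 2 and Apoc1 in 1, while Apoc2 and Ch25h lost theirs in each, although the differences kept their direction in every fit. The same fits called 304 to 609 of all genes in place of 666. Border macrophage markers had a summed level of 47910 to 89980 in NB_Control and 20660 to 34290 in NB_Stim, with 1 of 10 past the threshold, and 3 of 8 microglial markers were higher in NB_Stim. In addition 1 of 8 fibroblast markers was lower and 1 of 8 endothelial markers higher. Their part in the result was not tested.

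NB_Stim against NB_FACS asked how cytokine-treated cultures compare with sorted newborn cells. Apoc1, Apoc2, Ch25h and Soat1 were higher and Abcg1 lower in NB_Stim, 5 of 10 genes beside 31.1% of all genes. The groups did not overlap for those 5, and for 43.5% of all genes, and the median difference was 0.31 against 0.11 over all genes. The Apoc1 call was lost when any 1 of the 6 arrays was left out and the Abcg1 call when NB_FACS 2, NB_FACS 3, NB_Stim 1 or NB_Stim 2 was, while Mylip was past the threshold, at 0.50, without NB_FACS 3. This comparison shares its arrays with the preceding ones, so their values are given side by side and no agreement between them is counted. All 8 fibroblast markers and 4 of 10 astrocyte markers were past the threshold upward here. Of the border macrophage markers 2 of 10 were higher and 4 lower, and of the endothelial markers 1 of 8 was higher and 5 lower. Lower in NB_Stim were also 4 of 7 erythroid, 2 of 8 microglial and 1 of 4 choroid plexus markers. The part of these cells was not tested.

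The adult and newborn sorted cells were set against each other in A_FACS against NB_FACS. Apoc1, Apoc2, Lpl and Abcg1 were lower and Mylip was higher in A_FACS, 5 of 10 genes beside 22.7% of all genes. The groups did not overlap for 9 of 10, and for 51.2% of all genes, with a median difference of -1.37 against -0.0087 over all genes. On the spike-in scale 6 were lower and none higher. Age and sex differ together between these groups, since only females were sampled as adults. Per the methods, adults were killed with carbon dioxide and perfused, and newborns were decapitated. Adult brains were pressed through a strainer and newborn brains were dissociated by pipette. None of these differences can be told apart. Of the border macrophage markers 6 of 10 were lower in A_FACS, with summed levels of 1434 to 1866 against 12890 to 15620, as were 5 of 8 fibroblast, 4 of 7 erythroid and 4 of 10 astrocyte markers. Higher in A_FACS were 5 of 8 microglial, 3 of 8 endothelial, 1 of 4 choroid plexus and 1 of 8 fibroblast markers, and the part of these cells was not tested. The Mylip call was lost without either adult array, Apoe passed without A_FACS 2, at -3.07 from an NB_FACS level fixed by rank, and Ch25h passed without A_FACS 1.

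The 2 adult arrays agreed for some of the 10 genes and not for others. A_FACS 2 exceeded A_FACS 1 by 3.15 log2 units for Ch25h, 2.86 for Apoe, 2.76 for Apoc1, 2.65 for Lpl and 2.19 for Apoc2. Abca1, Abcg1 and Mylip differed by -0.094, 0.062 and -0.021, against a median absolute difference of 0.245 over all genes. Among marker genes, all 4 choroid plexus markers measured were higher in A_FACS 2, by 1.57 to 3.88, and their summed level was 16770 in A_FACS 1 and 125700 in A_FACS 2. Of the 10 border macrophage markers 8 were higher in A_FACS 2 and 5 by over 1 log2 unit, led by Ms4a7 (2.61), Pf4 (2.51), F13a1 (2.46) and Cd163 (2.11), with summed levels of 1434 and 1866. Of the 10 astrocyte markers 7 were higher, by up to 1.88, and of the 8 microglial markers 2 were higher, by up to 0.49. Also higher in A_FACS 2 were 6 of 8 fibroblast markers, by up to 4.35 (Thy1), 7 of 8 endothelial markers, by up to 1.25, and 5 of 7 erythroid markers, by up to 1.61. The part of these cells in the adult levels of Apoe, Apoc1, Apoc2, Lpl and Ch25h was not tested.

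**Figure D4:**
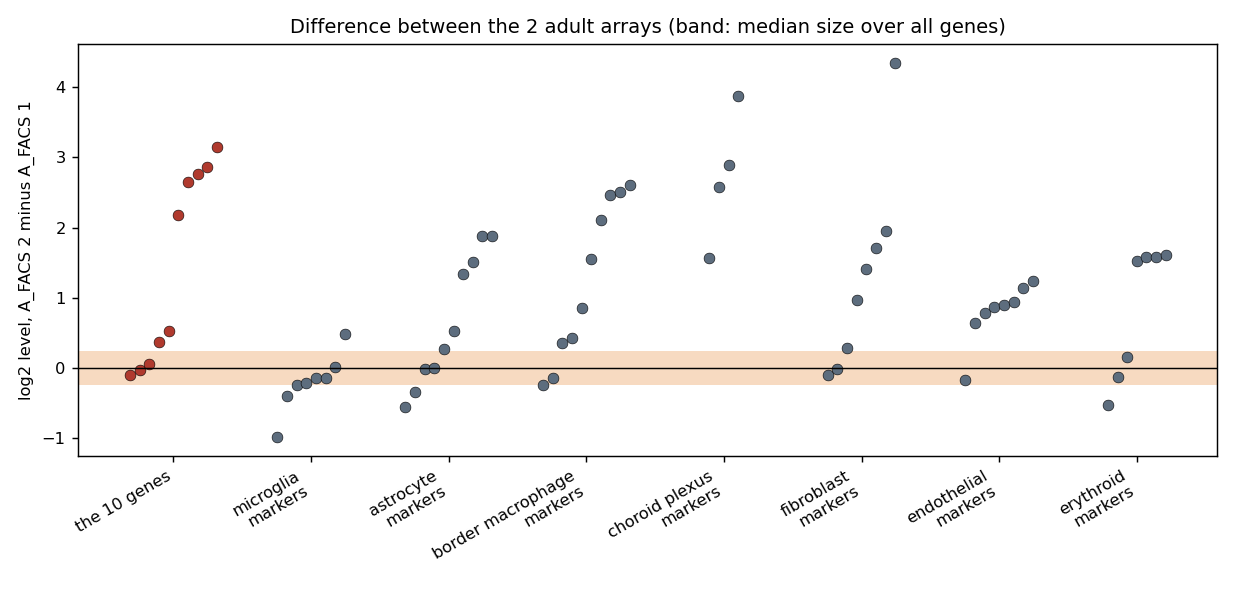
Log2 level on A_FACS 2 minus A_FACS 1 (vertical axis) for the 10 genes and for each marker gene measured, by list (horizontal axis), with a band of ± 0.245, the median absolute difference over all genes. Of the 10 genes 5 lie above 2 (Ch25h, Apoe, Apoc1, Lpl, Apoc2), as do some choroid plexus, border macrophage and fibroblast markers, while the microglial markers lie between -0.98 and 0.49.

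Apoe, Apoc1 and Apoc2 lie in one cluster on mouse chromosome 7, with Apoc4 between Apoc1 and Apoc2. Apoc4, a minor apolipoprotein of the same cluster, was not one of the 10 genes. It was on a pathway list chosen with earlier results of these data known, so its values are a description. Apoc4 was higher in NB_Stim than in NB_Control by 1.71 (SE 0.22, limma adjusted p = 0.00265) and than in NB_FACS by 1.98 (SE 0.22, limma adjusted p = 0.00012). Its mean log2 level was 11.33 ± 0.29 in NB_Stim, 9.62 ± 0.27 in NB_Control and 9.36 ± 0.33 in NB_FACS (SD, n = 3 each). Culture without cytokines gave 0.26 (SE 0.22, limma adjusted p = 0.427), and the adult group gave -0.058 (SE 0.25, limma adjusted p = 0.897), where Apoc1 and Apoc2 were several log2 units lower.

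The genes flanking the cluster were read for the same comparison of NB_Stim with NB_Control. On the Apoc2 side, Relb, a subunit of NF-κB, gave -0.41 (limma adjusted p = 0.305) and Clptm1 gave -0.037 (limma adjusted p = 0.953). On the Apoe side, Tomm40, a pore of the outer mitochondrial membrane, gave -0.15 (limma adjusted p = 0.7), Nectin2 gave 0.044 (limma adjusted p = 0.959) and Bcam gave 0.32 (limma adjusted p = 0.591). None of the 5 flanking genes measured passed in this comparison, beside 3.40% of all genes, so nothing is read from that count. The SE of these genes was 0.13 to 0.22. Relb fell by 1.59 from NB_FACS to NB_Control (SE 0.17, limma adjusted p = 0.000113), and Tomm40 and Clptm1 were lower in A_FACS than in NB_FACS, at -0.73 (limma adjusted p = 0.00601) and -0.65 (limma adjusted p = 0.0123). Gm44805, next to Apoc2 in the RefSeq order, was not measured.

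**Figure D5:**
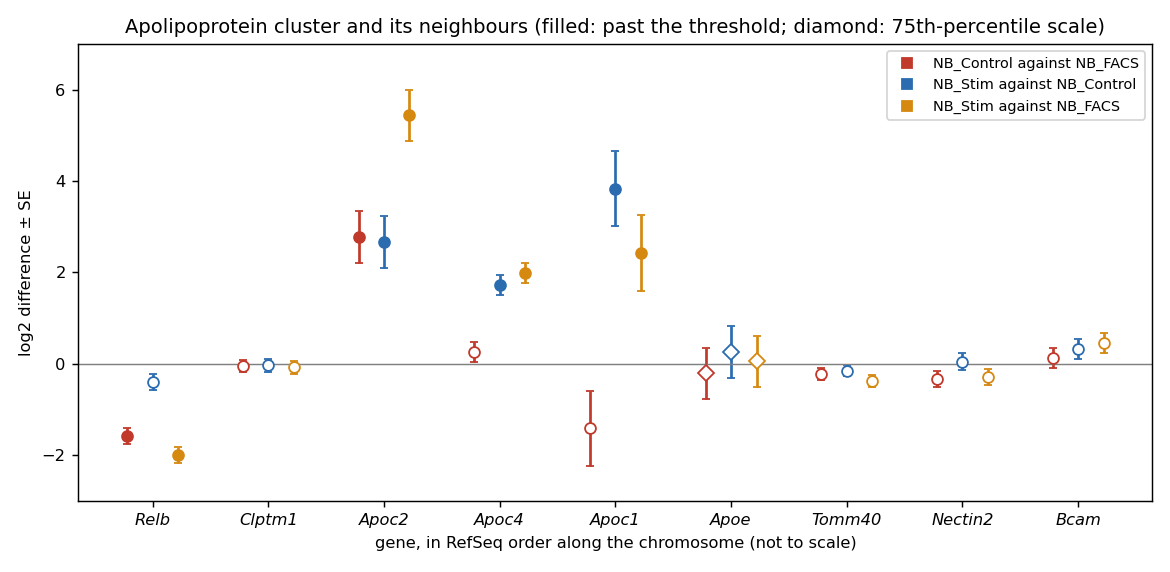
Log2 difference ± SE from limma (vertical axis) for the genes of the Apoe cluster and its neighbours, in RefSeq order along chromosome 7 and not to scale (horizontal axis), in 3 newborn comparisons shown by colour; filled symbols are past the threshold and Apoe is on the 75th-percentile scale (diamonds). Apoc2, Apoc4 and Apoc1 lie at 1.71 to 3.83 in NB_Stim against NB_Control, and Relb, Clptm1, Tomm40, Nectin2 and Bcam lie between -0.41 and 0.32.

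The rest of the lipid pathway was read from 6 lists of 93 genes set up by function, of which 80 were tested, 7 fell to the filter on dim probes and 6 had no matched probe. The lists were chosen with earlier results of these data known, so their counts and shares are given as a description. In NB_Control against NB_FACS 23 of the 80 rose and 11 fell, 42.5% against 29.7% of all genes, with a median of 0.26. Cd36, a scavenger receptor for fatty acids and oxidised lipoproteins, rose by 4.36 (SE 0.25, limma adjusted p = 2.57e-06). Pparg, the nuclear receptor of lipid storage, rose by 3.49 (SE 0.66, limma adjusted p = 0.00294). Nceh1, which releases cholesterol from its esters, rose by 2.86 (SE 0.41, limma adjusted p = 0.000552), as did Insig2, a brake on sterol synthesis, by 2.54 (SE 0.52, limma adjusted p = 0.00445), which was well above background on only 1 of 3 NB_FACS arrays. Angptl4, an inhibitor of Lpl, rose by 1.12 (SE 0.37, limma adjusted p = 0.0441), and Apobr, a receptor for apolipoprotein B, by 1.12 (SE 0.19, limma adjusted p = 0.00161). Scd2, a fatty acid desaturase, fell by 2.75 (SE 0.39, limma adjusted p = 0.000506), Gramd1b, which carries cholesterol from the plasma membrane to the endoplasmic reticulum, fell by 1.95 (SE 0.18, limma adjusted p = 4.11e-05), and Lrp8, a receptor for Apoe, fell by 1.94 (SE 0.49, limma adjusted p = 0.0139). By list, 10 of 13 uptake receptors changed (6 up, 4 down), 10 of 15 genes of sterol handling (6 up, 4 down), 6 of 22 of sterol synthesis (all up), 6 of 15 LXR partners and further targets (3 up, 3 down), 1 of 9 lipase partners and 1 of 6 other apolipoproteins.

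With cytokines, 5 of the 80 genes rose and 8 fell in NB_Stim against NB_Control, 16.2% beside 3.40% of all genes, with a median of -0.086. Pparg, well above background on 2 of 3 NB_Stim arrays, fell by 4.59 (SE 0.66, limma adjusted p = 0.00489) and Cd36 by 3.18 (SE 0.25, limma adjusted p = 0.000209), both of which had been higher in culture. Insig1 fell by 1.36 (SE 0.27, limma adjusted p = 0.0224), and Cyp27a1, which makes 27-hydroxycholesterol, fell by 1.15 (SE 0.20, limma adjusted p = 0.0118). Lrpap1, a chaperone of the LDL receptor family, rose by 1.54 (SE 0.23, limma adjusted p = 0.00641), Gramd1a by 0.92 (SE 0.19, limma adjusted p = 0.0321) and the LXR target Arl4c by 0.59 (SE 0.14, limma adjusted p = 0.0466). Of the lists, 5 of 13 uptake receptors, 4 of 15 genes of sterol handling, 2 of 15 LXR partners and targets, 1 of 22 genes of sterol synthesis, 1 of 6 other apolipoproteins and 0 of 9 lipase partners passed in limma. Of the lipase partners, 1 was under 0.05 in limma before adjustment and 0 by Tukey's test. The count over all lists was 7 without NB_Control 1 or NB_Stim 2, and 8 without NB_Control 2 or NB_Stim 1.

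Against NB_FACS, 16 pathway genes rose and 12 fell in NB_Stim, 35% beside 31.1% of all genes, with a median of 0.15. Insig2, well above background on only 1 of 3 NB_FACS arrays, rose by 3.34 (SE 0.52, limma adjusted p = 0.000928), Msr1, a scavenger receptor, by 2.77 (SE 0.22, limma adjusted p = 1.51e-05), the desaturase Scd1 by 2.56 (SE 0.29, limma adjusted p = 0.000148) and Nceh1 by 2.50 (SE 0.41, limma adjusted p = 0.00125). Lrp8 fell by 2.24 (SE 0.49, limma adjusted p = 0.00648), Gramd1b by 1.93 (SE 0.18, limma adjusted p = 4.52e-05), Abca9 by 1.84 (SE 0.33, limma adjusted p = 0.00199) and Insig1 by 1.20 (SE 0.27, limma adjusted p = 0.00651).

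In A_FACS against NB_FACS 7 pathway genes rose and 17 fell, 30% beside 22.7% of all genes, with a median of -0.16. Angptl4 fell by 4.39 (SE 0.41, limma adjusted p = 0.000108), Pparg, above background on 1 of 2 A_FACS arrays, by 2.75 (SE 0.74, limma adjusted p = 0.0245), Lrp8 by 2.49 (SE 0.55, limma adjusted p = 0.0102), Gramd1b by 2.05 (SE 0.20, limma adjusted p = 0.000144) and Mvd, of the mevalonate pathway, by 1.04 (SE 0.28, limma adjusted p = 0.0261). Cyp27a1 rose by 1.66 (SE 0.22, limma adjusted p = 0.000664) and Abca9, a transporter of the Abca family, by 1.18 (SE 0.37, limma adjusted p = 0.0433). The 6 of 13 uptake receptors that changed all fell, as did the 4 of 22 genes of sterol synthesis that changed. The count over all lists was 9 without A_FACS 1 and 15 without A_FACS 2.

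The genes most like Apoe and Apoc1 over the 11 arrays were ranked by the Pearson correlation of log2 level, as a description only, since arrays of a group share their condition. For Apoe, tied on 9 arrays, this ranks genes by the 2 adult arrays: Atad3aos (r = 0.992), Tceal5 (r = 0.946) and Mycs (r = 0.936). For Apoc1 they were the unnamed locus LOC100862433 (r = 0.973), the membrane protein gene Tmem9 (r = 0.960) and Pygl (r = 0.956), the liver form of glycogen phosphorylase. Pygl had a mean log2 level of 9.0 in A_FACS, 10.82 in NB_FACS, 11.16 in NB_Control and 12.11 in NB_Stim, a narrower span than that of Apoc1 and with NB_Control above NB_FACS.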

How the data were processed

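RNA was hybridised to single-colour Agilent arrays by a service provider, and the authors deposited the scanner output, in which, per the file headers, Feature Extraction 11.5.1.1 gives each spot an intensity (arbitrary units, background subtracted) and flags for background, saturation and outliers. The authors' intensity table of the series held the same numbers in all 62927 entries (relative tolerance 1e-05). Log2 values were taken here of the deposited intensities. Spots with outlier flags were left out, repeated spots averaged, and probes quantile normalised in limma 3.58.1 (R 4.3.3, data.table version 1.17.8, matplotlib 3.10.9). RefSeq accessions named 36264 of 60037 probes through a GRCm38.p6 gene table, used for names and gene order. A probe was kept if all arrays of some group showed it well above background, and probes of a gene were averaged (19572 genes).

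Groups came from sample titles. Each gene was fitted with 1 mean per group over all 11 arrays (7 residual and 2.69 prior degrees of freedom). All groups share the estimate of the spread, so a group with a wide spread raises the SE of every comparison. A gene was past the threshold at a Benjamini-Hochberg adjusted p under 0.05, two-sided. The code was tested on simulated data. The number of arrays limits the precision.

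Arrays of the newborn groups with the same replicate number deviated together (correlations of deviations from group means 0.112 to 0.489). Arrays with different numbers were not compared, and all newborn arrays numbered 3 were on slide 2. These correlations therefore cannot tell a pairing from the slide, and the replicate block is given only as an alternative. With A_FACS the correlations were -0.0692 to 0.168, and the numbers were not taken to pair those arrays.

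The members, lists and tests were chosen with earlier results of these data known. Named pathway genes were, per list and comparison, the called gene with the largest difference in each direction among genes above background in 1 of the groups. Named as well were the 3 genes most like Apoe and Apoc1, the 3 genes on each side of the cluster, and markers of 7 cell types. Alternatives were 75th percentile scaling, normexp with an offset of 50, the authors' table, no filter, the brightest probe, a replicate or slide block, only the 2 groups compared, averaged cultured replicates 1 and 2, Tukey's test (the methods' test), a log2 difference of at least 1 and leaving out each array. Spike-in scaling was added after seeing the data. Some listed genes are not reported here and were left out of the lists, their counts and their sums.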

Additional observations from a re-analysis of the deposited data

How the results depend on the processing

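Of 710 alternative values of single genes, 610 were counted as keeping direction and side of the threshold. Part of these could not change. The authors' table held the same numbers, and Apoe among newborn groups, 0 by construction, could not be counted as changing sign. Its 75th-percentile and spike-in values had opposite signs in NB_Stim against NB_Control and in NB_Control against NB_FACS. The 5 counted as changing sign were all Abca1 in NB_Stim against NB_FACS, at 0.0075 as reported. They were -0.16 with 75th percentile scaling and -0.053 with averaged cultured replicates 1 and 2. Without NB_Stim 1, NB_Stim 2 and NB_FACS 3 in turn they were -0.062, -0.044 and -0.049. The range was -0.062 to 0.13 over the 6 arrays left out in turn. Counts of the 10 genes moved by over 1.5 times as follows, and the cause was not tested. Tukey's test after Benjamini-Hochberg gave 2 in NB_Control against NB_FACS, 0 in NB_Stim against NB_Control, 3 in NB_Stim against NB_FACS and 1 in A_FACS against NB_FACS, and at 0.05 within a gene it gave 3 in NB_Stim against NB_FACS (in NB_Stim against NB_Control it gave 5, as in limma). Averaging cultured replicates 1 and 2, which leaves fewer arrays, gave 0 in NB_Stim against NB_Control in limma, where 7 were under 0.05 before adjustment, and 3 in NB_Stim against NB_FACS. Without the filter on dim probes, where more genes were tested, NB_Stim against NB_Control gave 2. Leaving out an array gave 1 to 2 there and 3 to 4 in NB_Stim against NB_FACS.

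Pathway genes numbered 17, 2, 17 and 9 in the 4 comparisons, in the same order, by Tukey's test after Benjamini-Hochberg, and 20, 4, 16 and 7 with spike-in scaling. On that scale the median of all genes was 0.64, -0.34, 0.33 and -0.35, and it split the pathway calls into 18 higher and 2 lower, 0 and 4, 10 and 6, and 0 and 7. With normexp background correction 5 of the 10 genes were higher and 1 lower in NB_Stim against NB_Control. Requiring a log2 difference of at least 1 left 18 in NB_Stim against NB_FACS and 13 in A_FACS against NB_FACS. Averaging replicates left 1 in NB_Stim against NB_Control, and slide as a block gave 44 in NB_Stim against NB_FACS. Leaving out an array gave 7 to 10 in NB_Stim against NB_Control and 9 to 19 in A_FACS against NB_FACS.

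With the replicate block, 6, 6, 5 and 7 of the 10 genes and 43, 17, 40 and 28 pathway genes were past the threshold. It added Nr1h3 in NB_Stim against NB_Control, and Abca1 and Soat1 in A_FACS against NB_FACS, and changed no other call of the 10 genes. Whether the numbers pair the arrays is not known for the newborn groups, and they were not taken to pair the adult arrays. The 11 arrays, with 2 in A_FACS, limit what could be detected, and the Apoe values at the top of the scale cannot be compared after quantile normalisation.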
